A study of Mus musculus with 2 samples.

Results

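Collagen genes were followed across serum stimulation and depletion of THOC5 in mouse embryonic fibroblasts. The members were all genes whose symbol on the array reads Col, a number, the letter a and a number, which gave 41 genes among the 31790 gene names measured. They were covered by 61 probes. For the 14 genes that had more than 1 probe, the brightest, by mean log2 processed signal over the channels, was used. Of the 41 genes, 28 were well above background in all 4 channels of the experiment, 4 in 3 of them and 9 in none. Not well above background in any channel with the probe used were Col4a3, Col6a6, Col8a2, Col9a3, Col10a1, Col13a1, Col15a1, Col19a1 and Col28a1, which are named here without values.

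RNA came from immortalized fibroblasts (MEF) of the genotype Rosa26ERT2 Cre: THOC5 (flox/flox) (strain C57BL/6 x B6:129 Ola). In this model a Cre recombinase expressed from the Rosa26 locus becomes active in the presence of tamoxifen and removes the floxed Thoc5 alleles. Control cells carried the same floxed alleles and the same Cre, received no tamoxifen and are labelled wildtype. THOC5-depleted cells, called depleted cells, were given tamoxifen (2 days per the label) and are labelled THOC5 knockdown. Tamoxifen and active Cre therefore cannot be told apart from the loss of THOC5, and neither can the culture and the array. Each kind of cell was measured on 1 dual-color array, with serum-starved, unstimulated cells in the green channel (Cy3) and cells after 1 h of fetal calf serum (FCS) in the red channel (Cy5). There was 1 array per condition and no exchange of dyes, so no value below has a replicate, a p-value or a standard error, and dye and serum cannot be told apart within an array. Each comparison is given by counts of genes past a fold and by medians, beside the same values for all genes.

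Collagens are proteins of 3 chains wound around each other, and each chain holds repeats that start with glycine. Most are secreted, while those of the transmembrane class sit in the cell membrane. Fibrillar collagens, chiefly types I, III and V in fibroblasts, form the load-bearing fibers of connective tissue. Type IV forms the sheet of basement membranes, type VI forms beaded filaments around cells, and the fibril-associated collagens decorate the fibers. Fibroblasts are the main collagen-producing cells of connective tissue. THOC5 is a subunit of the THO complex, which takes part in the processing and nuclear export of mRNA.

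Signals of the software that reads the scanner are given as processed intensities, and log2 values are log2 ratios of such intensities. No member spot was saturated. Among 43020 spots per array that were not controls, 62.1% to 64.4% lay well above background in a channel, and 239 and 234 outlier spots were left out. Probes printed as 10 spots had a median SD between spots of 0.03 (log2 ratio) on both arrays, which describes the array and not the cells. Thoc5 itself gave signals of 4808 and 3047 in control cells and of 545.6 and 455.1 in depleted cells (unstimulated and serum). After scaling between the arrays it was 7.08-fold lower in unstimulated depleted cells. Whether its probe (mm9 chr11:4828807-4828866) lies in the deleted part was not determined. All 9 fibroblast markers were well above background in the 4 channels, among them Col1a1, Col1a2 and Col3a1, with summed signals of 267468 to 378157 per channel. The summed signals were 144.9 to 235.1 for the 5 epithelial, 886.5 to 1136 for the 4 endothelial, 422.1 to 566.4 for the 4 macrophage and blood, 187.7 to 322.3 for the 4 chondrocyte (Col2a1 and Col9a1 among them), 41.6 to 51.73 for the 3 skeletal muscle and 139.6 to 232.9 for the 3 adipocyte markers. Of these markers, Krt8, Krt18, Krt14, Pecam1, Cdh5, Kdr, Csf1r, Acan, Col2a1, Myod1 and Fabp4 were well above background in all 4 channels. Cdh1, Tek, Matn1, Myog, Adipoq and Plin1 were not well above background in any channel, and the rest were so in some. As in any bulk RNA sample, fewer cells that make a collagen and less collagen mRNA per cell cannot be told apart.

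**Figure D1:**
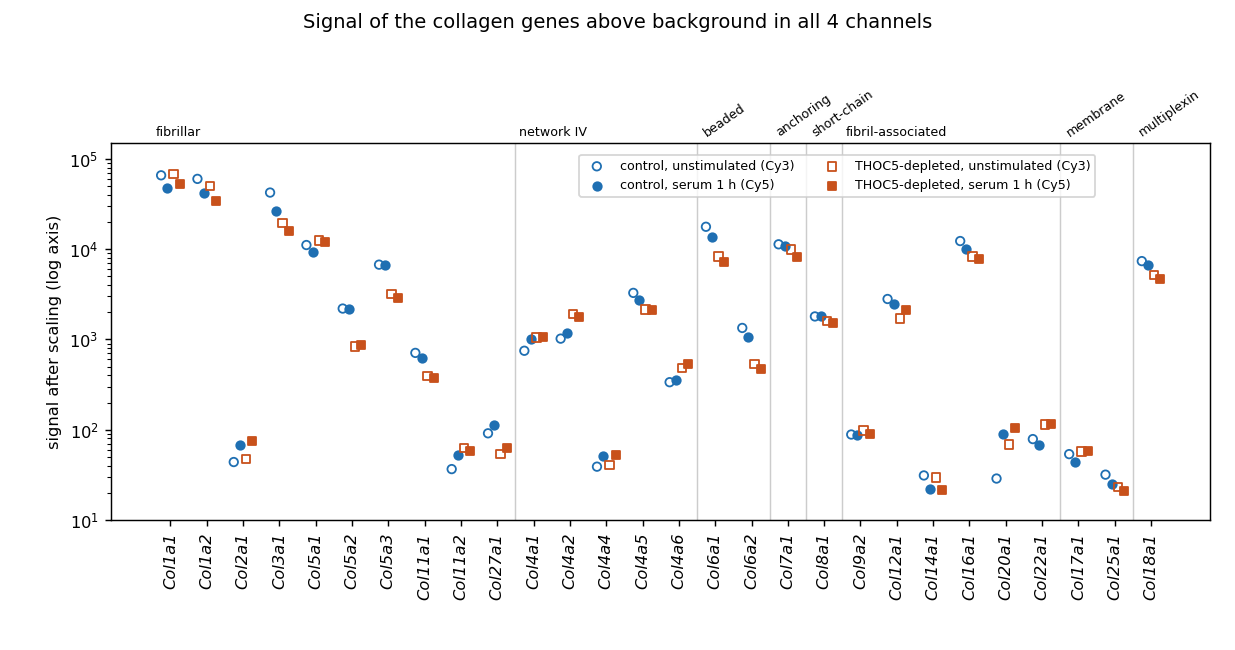
Signal of the 28 collagen genes above background in all 4 channels, after scaling between the arrays, on a log axis. Open symbols are unstimulated cells (Cy3), filled symbols cells after 1 h of serum (Cy5), circles the control array and squares the depleted array, and genes are grouped by collagen class. The squares of Col3a1, Col5a2, Col5a3, Col6a1 and Col6a2 lie below their circles, while for Col1a1 each square lies a little above the circle of the same channel.

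Sequences before the annotated start are shown for 4 genes that the results turn on, 1 whose signal differed between the arrays by less than the limit used (Col1a2) and 3 whose signal was lower in depleted cells (Col3a1, Col5a3 and Col6a1). They are the last 150 bases before the start in RefSeq (GRCm38.p6), 5′ to 3′, with each CCAAT sequence, on either strand, in capitals. The stretches are chr6:4505468-4505617 (plus strand), chr1:45311388-45311537 (plus strand), chr9:20815068-20815217 (minus strand) and chr10:76726045-76726194 (minus strand).
Col1a2: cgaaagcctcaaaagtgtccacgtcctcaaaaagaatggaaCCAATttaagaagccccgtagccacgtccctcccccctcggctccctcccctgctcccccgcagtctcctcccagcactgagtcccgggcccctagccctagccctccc
Col3a1: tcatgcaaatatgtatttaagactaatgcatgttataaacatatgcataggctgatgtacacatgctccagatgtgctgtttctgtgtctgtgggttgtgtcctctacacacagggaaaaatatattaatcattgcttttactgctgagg
Col5a3: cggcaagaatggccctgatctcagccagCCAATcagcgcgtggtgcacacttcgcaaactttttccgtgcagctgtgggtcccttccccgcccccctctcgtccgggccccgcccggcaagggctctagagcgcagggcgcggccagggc
Col6a1: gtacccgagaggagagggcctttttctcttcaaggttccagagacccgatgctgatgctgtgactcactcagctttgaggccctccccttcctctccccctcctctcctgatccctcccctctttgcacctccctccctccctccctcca

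Promoters of 33 of the 41 genes were found in the RefSeq table. In the 250 bases before the start, searched on both strands, CCAAT was found in 13 of these 33 genes (39.4%, against 37.5% of all 27025 genes in the table). GGGCGG was found in 20 (60.6% against 35.4%) and TATAAA in 5 (15.2% against 14.3%). Col1a2 and Col5a3 hold a CCAAT 109 and 122 bases before the start, and each holds GGGCGG at 2 places, 205 and 188 bases before it in Col1a2 and 63 and 41 in Col5a3. Col3a1 holds a TATAAA 117 bases before the start, and Col6a1 none of the 3 motifs in the window. Such a match describes the letters and is not a binding site. Col4a1 and Col4a2, which are neighbours read in opposite directions, have a CCAAT at 145 and 32 bases before their starts.

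To ask whether serum acts on collagen mRNAs within 1 h, the red channel was set over the green channel on each array, and a 1.5-fold change was counted. In control cells, 3 of 32 collagen genes above background in at least 1 of these channels were higher (Col2a1, Col6a4 and Col20a1) and 1 was lower (Col3a1), where 6.81% and 5.94% of 20511 genes passed these limits. In depleted cells, the same 3 genes were higher and 0 lower, against 3.51% and 1.7% of 20215 genes. Ratios below 0 were more common among the bright collagen probes, Col3a1 alone being past the limit. The median log2 ratio of the 32 genes was -0.18 in control cells (all genes -0.02) and -0.07 in depleted cells (all genes -0.01), with 22 of 32 below 0 on each array (68.8%, against 53.4% and 52.8% of all genes). Without dye normalization the medians of the 32 genes were 0.00 on both arrays, beside 0.09 and 0.07 for all genes, and 68.1% of the calls over all genes were upward in control cells in place of 53.4%.

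Type I and type III collagen, the main fibers made by fibroblasts, gave signals of 14360 or more in every channel. Col1a1 (probe at mm9 chr11:94813115-94813174) had processed signals of 70611 unstimulated and 51611 after serum in control cells, and of 63161 and 49578 in depleted cells. Its partner in the type I trimer, Col1a2 (mm9 chr6:4490619-4490678), had signals of 64709 and 44964 in control cells and 46496 and 31503 in depleted cells. For Col3a1 (mm9 chr1:45405589-45405648) the signals were 45649 and 28734 in control cells and 17481 and 14360 in depleted cells. In each of these cells the serum signal was the lower. The log2 serum ratio of Col1a1 was -0.45 (control) and -0.35 (depleted), that of Col1a2 was -0.53 and -0.56, and that of Col3a1 was -0.67 (1.59-fold lower) and -0.28. Among the 1323 genes with a mean signal of 20000 or more, the median ratio was -0.01 on both arrays. These 3 ratios depended on how the dyes were balanced. Without dye normalization, Col1a1 stood at 0.09 and 0.18, Col1a2 at -0.11 and -0.19 and Col3a1 at -0.30 and -0.10, while the median of the equally bright genes was 0.41 and 0.36.

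Other bright collagen probes had ratios of the same sign. In ranges of signal chosen after the values were seen, counting genes with a mean signal of 5000 or more, 8 collagen genes were found (Col1a1, Col1a2, Col3a1, Col5a1, Col6a1, Col7a1, Col16a1 and Col18a1), and all 8 had log2 serum ratios below 0 on both arrays, with medians of -0.32 in control and -0.24 in depleted cells. Of all 3816 genes that bright, 55.7% and 57.2% were below 0. Without dye normalization 4 and 5 of the 8 were below 0, and 8 and 7 lay below the median of the equally bright genes. Col5a1, whose chain nucleates fibers, had ratios of -0.26 and -0.07, and Col6a1, a chain of the beaded filament, of -0.36 and -0.21. Col16a1, a fibril-associated collagen, had -0.29 and -0.07, Col18a1, the precursor of endostatin, -0.14 and -0.17, and Col7a1, the chain of anchoring fibrils, -0.07 and -0.27. The direction of Col16a1 turned with the probe, since its second brightest probe, at 2402, 2470, 1328 and 1539 and above background in all 4 channels, gave 0.04 and 0.21.

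Collagens of medium signal (200 to 5000, 10 genes) had no common direction, with median ratios of -0.03 in control and -0.04 in depleted cells, beside -0.04 and -0.02 for all 8385 genes in that range. Col6a2 followed its partner Col6a1 with ratios of -0.33 and -0.19. Col5a2 (-0.03 and 0.07), Col5a3 (-0.02 and -0.14), Col8a1, a short-chain collagen of vessel walls (0.01 and -0.07), and Col11a1 (-0.20 and -0.08) lay near 0 or a little below it. Col4a5 had ratios of -0.28 and -0.01, and Col4a6 of 0.09 and 0.15. Col12a1, which binds along type I fibers, was at -0.17 in control and 0.32 in depleted cells, a difference of 0.49, which was the largest upward difference among the 28 genes. The accession of the Col12a1 probe was not listed in the RefSeq table used, the only such case among the 41 genes, so this value carries the name the array gives.

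**Figure D2:**
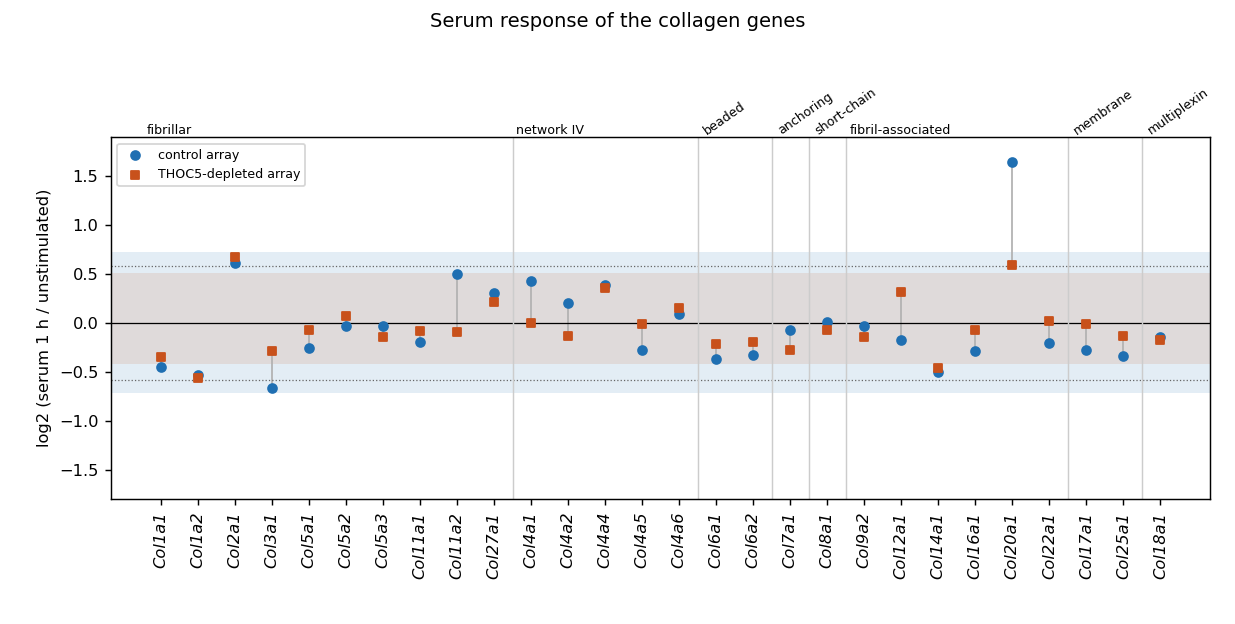
Log2 ratio of serum (1 h) over unstimulated signal for the 28 collagen genes in control cells (circles) and depleted cells (squares), by collagen class. Shaded bands are the 5th to the 95th percentile of all genes, -0.71 to 0.73 (control) and -0.42 to 0.51 (depleted), and dotted lines mark 1.5-fold. Col20a1 in control cells is the member farthest above them and Col3a1 in control cells the farthest below 0.

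Col4a1 and Col4a2, chains of the basement membrane collagen, had ratios above 0 in control cells. Col4a1 (mm9 chr8:11199009-11199068) was printed as 10 spots, and its ratio was 0.43 ± 0.03 on the control array, against -0.00 ± 0.02 for depleted cells (mean ± SD over 10 spots of 1 array). The 10 spots ranged from 0.37 to 0.46 in control cells, and those of depleted cells from -0.05 to 0.02. This spread covers the printing and reading of the array and not the cells. Median signals were 815.7 and 1102 in control cells (unstimulated and serum), against 957.7 and 956.1 in depleted cells. Col4a2, its neighbour on chromosome 8 and its partner in the same trimer (mm9 chr8:11448840-11448899), had signals of 1127 and 1299 in control cells and 1722 and 1574 in depleted cells, ratios of 0.20 and -0.13. Neither gene passed 1.5-fold. The serum ratio in depleted cells minus that in control cells was -0.43 for Col4a1 and -0.33 for Col4a2, while the 5th and 95th percentiles of all genes were -0.50 and 0.54.

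**Figure D3:**
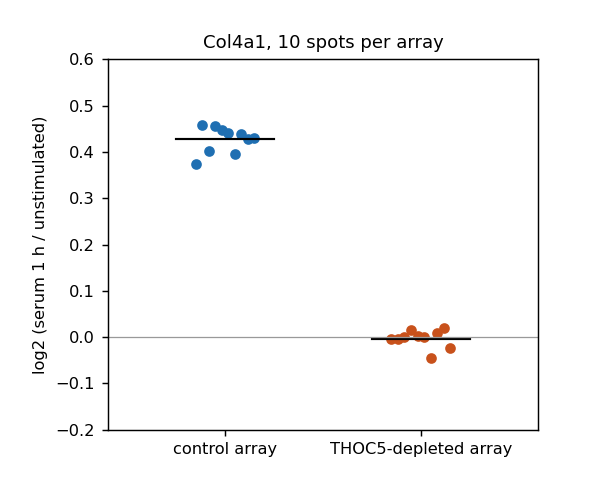
Log2 serum ratio of Col4a1 in each of its 10 spots on the control array and on the depleted array. Points are spots and horizontal lines are means, at 0.43 (control) and -0.00 (depleted). Spots of 1 array are technical repeats.

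The genes counted as higher after serum had signals under 100. Col20a1, a fibril-associated chain (mm9 chr2:180752070-180752129), had signals of 30.36 and 95.15 in control cells (3.13-fold higher after serum) and of 64.12 and 96.51 in depleted cells (1.5-fold). A second, dimmer probe of Col20a1, at 24.85 and 52.43 and at 44.71 and 52.37, gave log2 ratios of 1.08 and 0.23, the second short of 1.5-fold. With normexp background correction the ratio of Col20a1 was 0.90 in control cells and, short of 1.5-fold, 0.43 in depleted cells. Its serum ratio in depleted cells minus that in control cells was -1.06, the largest downward difference among the 28 genes, and the serum signals of the arrays were alike. Col2a1, the cartilage collagen, had signals of 46.13 and 70.88 in control cells and 45.06 and 71.93 in depleted cells, 1.54-fold and 1.6-fold higher after serum. Normexp background correction took the ratio of Col2a1 below 1.5-fold on both arrays. Col6a4 had signals of 23.53 and 45.72 in control cells (1.94-fold), and of 11.59, not well above background, and 18.09 in depleted cells (at least 1.56-fold). Its other probe, not well above background in any channel, gave -0.59 and -0.84 in place of 0.96 and 0.64, so the direction of Col6a4 rests on 1 probe. Normexp background correction left Col6a4 at 0.42 and 0.17, within the limit.

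Further members of low signal stayed within the limit with the probe used. Col11a2, a cartilage fibril chain, had log2 serum ratios of 0.50 in control and -0.09 in depleted cells, at signals of 38.56 to 59.28. Col4a4 (0.39 and 0.36) and Col27a1 (0.31 and 0.22) lay above 0 on both arrays, and Col14a1, a fibril-associated chain, below 0 (-0.49 and -0.46). A second Col14a1 probe, above background in all 4 channels, gave -0.69 in control cells, past 1.5-fold, and 0.11 in depleted cells. The direction of Col14a1 in depleted cells therefore turned with the probe. The other 2 Col4a4 probes were not well above background in any channel. For Col22a1 the ratios were -0.21 and 0.02, for Col9a2 -0.03 and -0.14, and for the membrane collagens Col17a1 and Col25a1 -0.27 and -0.01, and -0.34 and -0.13. The second Col25a1 probe, above background only in unstimulated cells, was past the limit on both arrays, at least 4.36-fold lower after serum in control and at least 1.83-fold lower in depleted cells, so the Col25a1 probes disagree. Col24a1, Col9a1 and Col23a1 were not well above background after serum in control cells, where they were at least 1.45-fold, 1.28-fold and 1.36-fold lower than in unstimulated cells.

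Col25a1 has 4 probes. The sequence of the one used is shown because a glycine repeat such as defines the family can be read in it, at every ninth base of the 60, as 6 codons in capitals, with 0 stop codons in that frame (mm9 chr3:130270497-130270556, plus strand).
Col25a1: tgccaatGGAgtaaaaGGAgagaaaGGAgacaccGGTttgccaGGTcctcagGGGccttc
This probe had signals of 33.38, 26.4, 21.95 and 20.02 (control unstimulated, control serum, depleted unstimulated, depleted serum). The next brightest Col25a1 probe, at 60.88, 10.22, 21.87 and 11.24, was well above background in 2 channels only, and the other 2 probes in 0.

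Over the 28 genes above background in all 4 channels, the serum ratio in depleted cells minus that in control cells had a median of 0.06, beside 0.01 for all 18631 such genes, and was above 0 for 16 genes and below 0 for 12. It ranged from -1.06 (Col20a1) to 0.49 (Col12a1), and Col3a1 had the next highest value, 0.38. Apart from Col20a1, Col11a2 (-0.59) was the only member of the 28 outside the 5th to 95th percentile range of all genes given above. Both have signals under 100, and with normexp background correction the differences were -0.47 for Col20a1 and -0.31 for Col11a2, and with a floor of 50 they were -0.34 and -0.21. No gene was past 1.5-fold upward on 1 array and past 1.5-fold downward on the other.

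To ask how the level of collagen mRNAs differed upon depletion of THOC5, signals of the same channel were compared between the arrays after Aquantile scaling, which gives both arrays the same distribution of mean log signal, and a 2-fold difference was counted. In unstimulated cells, 5 of 32 collagen genes were lower in depleted cells (Col3a1, Col5a2, Col5a3, Col6a1 and Col6a2) and 1 was higher (Col20a1), where 2.13% and 2.27% of 20838 genes passed these limits. After serum, 4 of 32 were lower (Col5a2, Col5a3, Col6a2 and Col6a4) and 1 was higher (Col24a1), against 2.34% and 2.48% of 20353 genes. Single markers differed between the arrays along with these collagen genes. In unstimulated depleted cells the fibroblast marker Pdgfra (1269 and 435) was 2.43-fold lower and Fbn1 (1859 and 854.8) 1.77-fold lower, while Vim and Thy1 stood at 0.02 and 0.25. The epithelial marker Epcam was at least 2.58-fold lower and the macrophage marker Cd68 at least 2.34-fold higher, with signals under 33 in all channels. Other markers of these lists did not all follow. Krt8, Krt18 and Krt14 stood at 0.04, 0.14 and 0.30 and Csf1r at 0.24, while Ptprc was at least 1.44-fold higher and Emr1 at least 1.1-fold lower. After serum, Epcam, Cdh5 (endothelial) and Acan (chondrocyte) were past 2-fold downward and Cd68 upward. Beside them Krt8, Krt18 and Krt14 stood at -0.90, -0.19 and 0.22, and Pecam1, Kdr and Csf1r at -0.06 each. Col2a1 stood at 0.17, Col9a1 was at least 1.31-fold and Ptprc at least 1.15-fold higher, and Emr1 gave a bound of 1.0-fold. Pdgfra was also 2.09-fold lower after serum in control cells. The part of these markers in the collagen results was not tested. The medians of the 32 genes were -0.12 and -0.14, beside 0.00 for all genes in both channels. Without scaling between the arrays all genes shifted by -0.25 in both channels. Past 2-fold downward were then 8 and 7 collagen genes, beside 737 of 20838 and 789 of 20353 genes. The calls over all genes were upward in 30.5% and 29.1% in place of 51.7% and 51.4%. With scaling to the 75th percentile these shares were 64.6% and 62%. Unstimulated control signal enters both the serum ratio of control cells and this comparison of unstimulated cells, so the comparisons share measurements.

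Among the fibrillar collagens, Col5a2, Col5a3 and Col3a1 were past 2-fold downward in unstimulated cells, and Col5a2 and Col5a3 also after serum. Col5a2 (mm9 chr1:45431204-45431263) had signals of 2459 and 2408 in control cells (unstimulated and serum) and of 756.8 and 796.8 in depleted cells. After scaling it was 2.65-fold lower in unstimulated and 2.46-fold lower in serum-stimulated depleted cells. Col5a3 (mm9 chr9:20574592-20574651) had signals of 7532 and 7407 in control cells and of 2850 and 2581 in depleted cells, 2.12-fold and 2.3-fold lower. Col3a1 was lower by 2.19-fold before and by 1.68-fold after serum. Col5a1, which joins Col5a2 in the most common type V trimer, differed from both, at 12463 and 10439 in control cells and 11203 and 10672 in depleted cells, with log2 differences of 0.17 and 0.36. Col1a1 was close to even, at 0.04 and 0.14, and Col1a2 stood at -0.25 and -0.29. Without scaling, Col1a1 was at -0.16 and -0.06 and Col5a1 at -0.15 and 0.03, above the medians of -0.26 and -0.25 that all genes had without it. In unstimulated cells Col1a1 stood at -0.05 with normexp background correction and at -0.04 with quantile normalization of the 4 channels, on the other side of 0. Col11a1 was 1.79-fold and 1.65-fold lower, and Col27a1 1.7-fold and 1.81-fold lower, both short of the limit. Col2a1 (0.11 and 0.17) and Col11a2 (0.77 and 0.18) lay above 0.

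Col6a1 and Col6a2, chains of the type VI filament, were lower. Col6a1 (mm9 chr10:76171538-76171597) had signals of 19702 and 15323 in control cells and of 7418 and 6420 in depleted cells. This made it 2.13-fold lower in unstimulated and 1.92-fold lower in serum-stimulated cells. Col6a2 (mm9 chr10:76058931-76058990) had signals of 1485 and 1183 in control cells and of 484.5 and 423.5 in depleted cells, 2.52-fold and 2.3-fold lower. Col6a4 was lower by at least 1.83-fold before and by 2.27-fold after serum with the probe used, at signals of 45.72 and 18.09. The other Col6a4 probe gave 0.22 in place of -1.19 after serum. Normexp background correction took this value to -0.54, within 2-fold, and a floor of 50 to 0.0. Col6a1 and Col6a2 have 1 probe each, so no second probe bears on them.

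**Figure D4:**
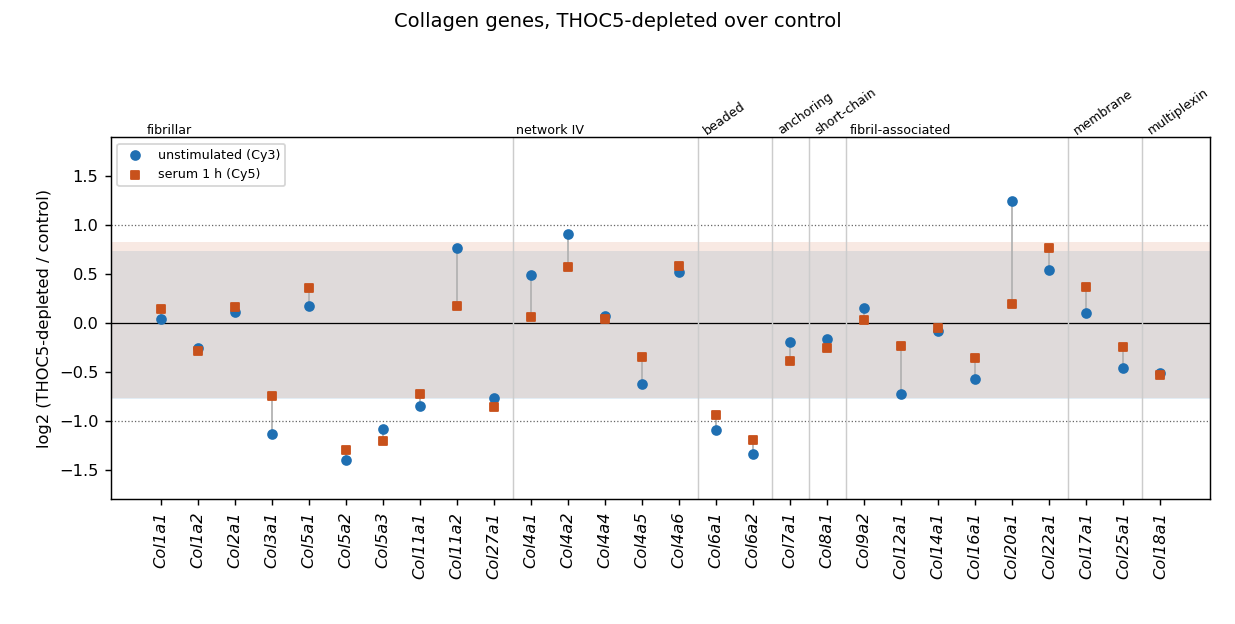
Log2 ratio of depleted over control signal for the 28 collagen genes in unstimulated cells (Cy3, circles) and after 1 h of serum (Cy5, squares), after Aquantile scaling, by collagen class. Bands are the 5th to the 95th percentile of all genes, from -0.78 to 0.74 and from -0.77 to 0.83, and dotted lines mark 2-fold. Col5a2, Col5a3 and Col6a2 lie below the lower line in both channels.

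Type IV chains differed among themselves. Col4a2 was 1.88-fold higher in unstimulated and 1.49-fold higher in serum-stimulated depleted cells, and Col4a1 1.41-fold and 1.05-fold higher. Col4a5, on the X chromosome, had signals of 3648 and 3010 in control cells and of 1913 and 1904 in depleted cells, 1.54-fold and 1.27-fold lower. Its neighbour and trimer partner Col4a6 had 365.9 and 389.7 against 440.5 and 488.9, log2 differences of 0.53 and 0.59, while a second Col4a6 probe gave 0.00 and -0.00. Col4a4 was near even (0.07 and 0.04), and its partner Col4a3 was not well above background.

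The remaining classes had few members past the limit. Col12a1 was lower by 1.65-fold before and by 1.18-fold after serum, at signals of 3133 and 2788 in control cells and of 1525 and 1903 in depleted cells. Col16a1 was 1.49-fold and 1.28-fold lower with the brightest of its 3 probes, and the other probes gave log2 differences of -0.54 and -0.42 in unstimulated cells beside the -0.57 of the probe used. The dimmest Col16a1 probe, at 87.42, 89.43, 58.25 and 36.26, gave a serum ratio of -0.68 in depleted cells, where the probe used gave -0.07. After serum that probe stood at -1.14 between the arrays, past 2-fold, against -0.36 for the probe used and -0.37 for the second brightest. Col18a1 was 1.42-fold and 1.45-fold lower, and its second probe gave -0.53 and -0.47 beside -0.51 and -0.54. Col7a1 (-0.19 and -0.39) and Col8a1 (-0.17 and -0.26) lay a little below 0. Col14a1 was near even with the probe used (-0.08 and -0.05) and lower with the other (-1.70 and -0.90), at signals of 44.37 and 12.34 in unstimulated cells, so its 2 probes disagree.

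Col20a1 was 2.38-fold higher in unstimulated depleted cells and 1.14-fold higher after serum, and its second probe gave log2 differences of 1.00 and 0.15. The difference of Col20a1 in unstimulated cells fell short of 2-fold with normexp background correction (log2 0.62) and with a floor of 50 (0.54). Col24a1, a fibrillar chain of low signal, was at 13.21, not well above background, in serum-stimulated control cells and at 29.49 in depleted cells, at least 2.33-fold higher. Normexp background correction took Col24a1 to 0.47 on the log2 scale and a floor of 50 to 0.0. In the same comparison Col9a1 and Col23a1 were at least 1.31-fold and 1.41-fold higher. Col22a1 stood at 0.54 and 0.77, Col9a2 at 0.15 and 0.04, Col17a1 at 0.10 and 0.37, and Col25a1 at -0.45 and -0.25. The second Col25a1 probe, at 60.88 and 21.87 in unstimulated cells, was 2.5-fold lower in depleted cells, past the limit, and it was not well above background in either serum channel.

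Set beside each other by chromosome, 4 pairs of neighbouring collagen genes were measured on both sides in all 4 channels. Col3a1 and Col5a2 on chromosome 1 were both lower in unstimulated depleted cells (-1.13 and -1.40), as were Col6a1 and Col6a2 on chromosome 10 (-1.09 and -1.33). Col4a1 and Col4a2 on chromosome 8 were both above 0 (0.49 and 0.91). Col4a5 and Col4a6 on chromosome X had opposite signs (-0.62 and 0.53). Among partners of 1 trimer, Col1a1 stood at 0.04 beside Col1a2 at -0.25, and Col5a1 at 0.17 beside Col5a2 at -1.40.

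Genes that act on collagen were read from 4 lists. Of the collagen processing list, which holds the prolyl and lysyl hydroxylases, chaperones, propeptide proteases and lysyl oxidases, 31 of 33 genes on the array were tested. In unstimulated and in serum-stimulated cells, 0 of the 31 differed by 2-fold between the arrays, where 2.27% and 2.48% of all genes were higher and 2.13% and 2.34% lower, and the medians were 0.01 and -0.09 (all genes 0.00). After serum in control cells 2 of 31 genes were higher and 0 lower (all genes 6.81% and 5.94%), the lysyl oxidase relatives Loxl2 (5034 and 7960, 1.58-fold) and Loxl4 (299.3 and 463.6, 1.55-fold). In depleted cells 0 genes of this list passed 1.5-fold (all genes 3.51% higher and 1.7% lower), and Loxl2 had signals of 4622 and 3476.

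Proteins that bind or accompany collagen fibers made up a list of 20 genes, of which 3 were lower and 0 higher in unstimulated depleted cells (all genes 2.13% and 2.27%). Ogn (osteoglycin), a small proteoglycan of the fiber surface, had signals of 5522 and 1357 (3.23-fold lower), Dpt (dermatopontin) of 2041 and 764.2 (2.19-fold lower), and Lum (lumican) of 36.24 and 7.88, the latter not well above background (at least 2.92-fold lower). After serum, 3 were lower and 0 higher (all genes 2.34% and 2.48%), namely Ogn (2.69-fold), Tnc (tenascin C, 2.63-fold) and Dpt (2.4-fold). After serum in control cells Tnc (2.4-fold), Thbs1 (thrombospondin, 1.95-fold) and Eln (elastin, 1.57-fold) were higher and 0 genes lower (all genes 6.81% and 5.94%). Eln had low signals, 23.53 and 36.92. In depleted cells 0 of 19 were higher and Bgn (biglycan) was 1.51-fold lower (all genes 3.51% and 1.7%).

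Of the 10 collagen receptor genes, 8 were tested, and Itga1, an integrin chain that binds collagen, was the only one past a limit, 2.06-fold higher in serum-stimulated depleted cells at signals of 19.3 and 35.81 (all genes 2.48%). The list of regulators of collagen genes, 23 genes of the TGF-beta pathway and factors that act on collagen promoters or mRNA, had 6 higher and 2 lower after serum in control cells (all genes 6.81% and 5.94%). The farthest were Smad7, an inhibitor of TGF-beta signaling (392.7 and 6437, 16.4-fold), Ctgf (12252 and 130374, 10.6-fold) and Skil, another inhibitor (4.79-fold), and the lower ones were Tgfbr2, a TGF-beta receptor (1.65-fold), and Larp6, which binds collagen mRNA (1.54-fold). In depleted cells 4 were higher and 0 lower (all genes 3.51% and 1.7%), among them Smad7 (3.27-fold), Skil (2.44-fold) and Ctgf (2.23-fold). Unstimulated depleted cells had 3 regulators higher (Runx2, 2.83-fold, Ctgf, 2.54-fold, and Smad7, 2.17-fold) and 0 lower (all genes 2.27% and 2.13%). After serum, Runx2 was 2.03-fold higher, and Sox9 (2.74-fold), Smad7 (2.31-fold) and Skil (2.19-fold) were lower (all genes 2.48% higher and 2.34% lower). Runx2 had low signals, 21.75 and 55.36 (control and depleted) before and 26.09 and 47.78 after serum.

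**Figure D5:**
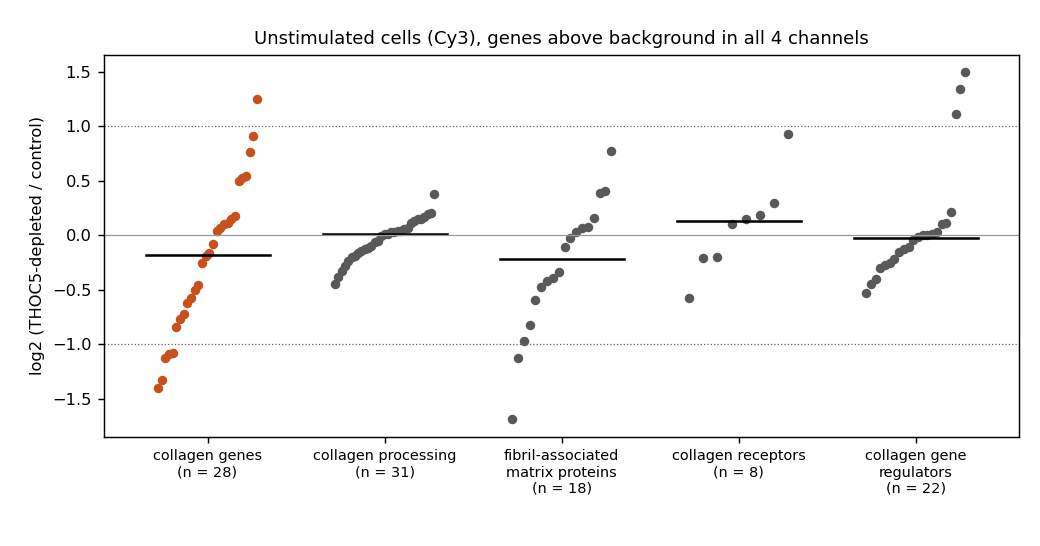
Log2 ratio of depleted over control signal in unstimulated cells for the collagen genes and the 4 lists, genes above background in all 4 channels only. Points are genes in rising order, horizontal lines are medians (-0.18 for 28 collagen genes, 0.01 for 31 processing genes, -0.22 for 18 matrix proteins, 0.13 for 8 receptors and -0.03 for 22 regulators) and dotted lines mark 2-fold.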

How the data were processed

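Total RNA of 2 kinds of cells was measured on 2 dual-color Agilent arrays. The authors deposited the text output of Agilent Feature Extraction (10.7.3.1, per the submitters' processing notes), in which probes are placed on mm9. The processed signals used here are deposited intensities from which the software had subtracted the background and, per the file headers, balanced the dyes within each array (linear and LOWESS), without scaling between arrays. The authors also deposited a table of log10 ratios. It holds 0 negative values and equals, for 100% of 44397 features within 0.0001, the size of the log10 ratio of the 2 signals raised to a floor, so it lacks the sign and served only as an alternative, with the scanner's sign. The number of columns not mapped to a sample is 0.

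Outlier spots were left out, and spots of a probe were averaged as log2. A gene was counted in a comparison when it was well above background in at least 1 of the 2 channels compared. Where 1 channel was not, the value is a bound against the higher of the lowest signal well above background and the probe's own signal. Between arrays, limma 3.58.1 (Aquantile) in R 4.3.3 was used. The number of arrays limits the precision. Names are those of the array, of which 3651 probes have an accession or probe name only. The accession of the probe used matched the symbol in RefSeq for 40 of the 41 genes (not for Col12a1, whose accession is not listed there). Probe positions were not set against exons or UTRs. Named were all collagen genes above background in 4 channels, others where past a limit or bounded, Thoc5, and of each list up to 3 genes in each direction past a limit in each comparison. The members and lists were chosen with earlier results of these data known.

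Alternatives were normexp (offset 50) with loess, signals without dye normalization, the median over probes, the second brightest probe, other filters on background, a floor of 50 set before scaling, outlier spots kept, the table of log10 ratios, other scalings between arrays, other folds, and log ratios scaled to 1 spread. In simulated data (200 genes with known changes), for 2.5-fold serum changes in control cells (20521 genes tested) 100% of the changed genes were recovered and 1 unchanged gene was called. For 3-fold differences between the arrays, 97% of the higher and 100% of the lower genes were recovered in unstimulated cells (20814 genes tested, 1 unchanged gene called) and after serum (20323 genes, 0 called). The changed genes were all of bright signal, with folds past the limits counted, so this recovery does not bear on genes of low signal. The simulated spread was set in advance and not taken from these arrays. Python 3.11.15, numpy 2.4.6, pandas 2.3.3 and matplotlib 3.10.9 were used.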

Additional observations from a re-analysis of the deposited data

How the results depend on the processing

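Of 18 member values past a limit, 14 kept their sign and 9 stayed past the limit under every alternative run for them. Those 9 are the unstimulated values of Col3a1, Col5a2, Col5a3, Col6a1 and Col6a2, the serum-stimulated values of Col5a2, Col5a3 and Col6a2, and the serum ratio of Col20a1 in control cells. All but Col20a1 have 1 probe each, so alternatives that change the probe could not move them. The background filters and keeping outlier spots also left those values unchanged. Col6a4 reversed with the median over probes (serum ratio in THOC5-depleted cells -0.10) and with the second brightest probe (serum ratios of -0.59 and -0.84, and 0.22 between serum-stimulated arrays). A floor of 50 took Col24a1 to 0. No paired analysis was possible because there was 1 array per group, and no replicate could be left out.

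Where an alternative moved a count of members by over 1.5 times, or a median by more than the spread between spots (0.031 for serum ratios and 0.069 between the arrays, where 1 channel of each array enters), the values were as follows, and the cause was not tested unless the alternative itself shows it. For serum in control cells (3 higher, 1 lower, median -0.18), normexp with loess gave 1 higher and a median of -0.084. Over all genes it left 954 of 20511 higher, in place of 1397. No dye normalization gave 0 lower and 0.0046, the median over probes 4 lower and -0.12, and the second brightest probe 3 lower. Of all genes, 941 of 20511, 1481 of 20524 and 1198 of 19313 were lower with these, beside 1219 of 20511 with the processing used. Taking no filter gave 5 higher, 2 lower and -0.0266, a floor of 50 gave 1 higher and -0.0254, and the table of log10 ratios 2 lower. Of all genes, 2368 were higher and 2378 lower of 31790 without a filter. The floor gave 974 higher and the table of log10 ratios 1336 lower, each of 20511. A lower limit, at a log2 ratio of 0.32, gave 6 higher and 10 lower, and 2-fold gave 1 and 0. The share of all genes past these other limits was not counted, so these counts have nothing to be set against.

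For serum in THOC5-depleted cells (3 higher, 0 lower, median -0.07), normexp gave 0 higher. Over all genes it left 360 of 20215 higher, in place of 709. No dye normalization gave a median of 0.0037, the median over probes 1 higher, and the second brightest probe 1 higher and 1 lower. Of all genes, the median over probes called 742 of 20227 higher, and the second brightest probe 647 higher and 405 lower of 18966. Without a filter 5 were higher, and a floor of 50 gave 1 higher and -0.0064. Of all genes, 1726 of 31790 were higher without a filter and 395 of 20215 with the floor. The limit of 0.32 gave 5 higher and 3 lower, and 2-fold 0 higher, again without a count over all genes.

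For unstimulated THOC5-depleted over control cells (1 higher, 5 lower, median -0.12), normexp gave 0 higher, the median over probes a median of -0.20, the second brightest probe -0.39, no filter 0.0754, a floor of 50 gave 0 higher and 0.00, and 75th percentile scaling -0.0446. The median of all genes moved too, to 0.0688 without a filter and to 0.0452 with 75th percentile scaling. Of all genes, 147 of 20838 were higher with normexp and 162 with the floor, in place of 474. No scaling gave 8 lower and -0.35, and a 1.5-fold limit 3 higher and 10 lower. Of all genes, 737 of 20838 were lower without scaling, in place of 443, with a median of -0.26. The share of all genes past 1.5-fold was not counted. After serum (1 higher, 4 lower, median -0.14), normexp gave 0 higher and -0.0032, the second brightest probe -0.26, a filter on all 4 channels 0 higher and -0.24, no filter -0.0455, a floor of 50 gave 0 higher and 0.00, and 75th percentile scaling -0.0282. Of all genes, 174 of 20353 were higher with normexp, 298 of 18631 with that filter and 220 of 20353 with the floor, in place of 504. The median of all genes was -0.0551 without a filter and 0.0246 with 75th percentile scaling. No scaling gave 7 lower and -0.31, and a 1.5-fold limit 3 higher and 8 lower. Without scaling 789 of 20353 genes were lower, in place of 477, with a median of -0.25, and the share past 1.5-fold was not counted. The median difference of the serum ratios (0.06) was 0.0105 with a floor of 50. With 1 array per condition, no difference between conditions has an error.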
